A study of Mus musculus with 2 samples.

Results

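The RUNX genes Runx1, Runx2 and Runx3, their shared partner gene Cbfb and the corepressor gene Runx1t1 were described in common myeloid progenitors (CMP), bone marrow cells that give rise to granulocytes, monocytes, red cells and platelets. The 5 genes were found by symbol among the 43346 genes listed for each library, and their 39 annotated transcripts were read beside them. The study measured total RNA longer than 200 nt, with spike-in RNA added, in 2 libraries of a single group. Each library was made from 100 primary CMP of C57BL/6J males aged 5 to 6 weeks, with no allele or agent named, and the labels give both biological replicates the same donor identifier. How many animals that identifier stands for was not stated, so the spread between the libraries may be in part technical. No second cell type or condition was present, so the comparisons are between genes, between transcripts and between the 2 libraries.

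RUNX proteins bind DNA through the Runt domain, and CBFβ, the product of Cbfb, binds no DNA itself but joins the Runt domain and strengthens its hold on DNA. Runx1 is known for its role in the making of blood stem cells and in megakaryocytes, Runx2 for bone formation, and Runx3 for T cell and natural killer cell development. Each RUNX gene has a distal and a proximal promoter, which give proteins with different N termini. Runx1t1 encodes a corepressor of the MTG family, best known as the partner of RUNX1 in a fusion protein of acute myeloid leukaemia.

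The libraries held 28916263 and 26426710 expected counts, of which nuclear protein-coding genes took 43.9% and 45.3%. A floor of 3 counts was worth 0.104 and 0.114 counts per 1000000 (CPM). Of the sorting markers of CMP, Kit stood at 98.1 TPM (transcripts per 1000000) in replicate 1 and 93.0 TPM in replicate 2, and Cd34 at 74.5 and 55.4 TPM. The Fc receptor genes were low, with Fcgr2b at 2.48 and 9.59 TPM and Fcgr3 at 0.64 and 4.27 TPM, while Ly6a and Il7r had no counts. Among 10 T cell markers and 8 natural killer cell markers, none was detected, detection meaning 1 TPM or more in both libraries, and Cd3d, Cd3e, Cd3g, Cd8a, Ncr1 and Eomes were at 0 counts. The T cell markers Cd5, at 3.67 TPM in replicate 1, and Lck, at 3.35 TPM in replicate 2, each passed 1 TPM in a single library. Of 12 markers of osteoblasts and stroma, 9 were at 0 counts, Sp7, Bglap and Col1a1 among them, and Pdgfrb was detected at 6.46 and 6.81 TPM. Summed levels of these markers were 4.12 and 3.81 TPM for T cells, 1.24 and 0.44 TPM for natural killer cells, and 7.49 and 7.21 TPM for osteoblasts and stroma.

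All 3 RUNX genes and Cbfb were detected in both libraries, and Runx1t1 was not. For comparison, 44.9% of the 21461 nuclear protein-coding genes were detected, and the median of those detected was 13.2 TPM in replicate 1 and 13.5 TPM in replicate 2. Runx1 was the most abundant of the 5 when all its transcript models were summed, but not when only its longer protein-coding models were. In pools of cells, a smaller share of cells with a transcript and less of it per cell cannot be told apart.

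Runx1, at chr16:92601466-92826149 on the minus strand (GRCm38, GENCODE M21, ENSMUSG00000022952), stood at 65.3 TPM in replicate 1 and 112.1 TPM in replicate 2, from 4508 and 5982 counts. Its mean was 88.7 ± 33.1 TPM (SD, n = 2), and it lay above 96.2% and 98.2% of nuclear protein-coding genes. Runx3, at chr4:135120652-135177990 on the plus strand (ENSMUSG00000070691), stood at 36.0 and 42.9 TPM from 2433 and 2832 counts, a mean of 39.5 ± 4.89 TPM. It was the second most abundant of the 5 genes in both libraries, although no marker of the T or natural killer cells in which it is best known was detected.

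Runx2, at chr17:44495987-44814797 on the minus strand (ENSMUSG00000039153), stood at 31.0 TPM in replicate 1 and 18.9 TPM in replicate 2, from 1749 and 1440 counts. It was the one detected gene of the 5 that was lower in replicate 2, and its mean was 24.9 ± 8.56 TPM. Cbfb, at chr8:105170674-105217989 on the plus strand (ENSMUSG00000031885), stood at 25.7 and 30.5 TPM from 1362 and 1421 counts, a mean of 28.1 ± 3.43 TPM. Runx2 and Cbfb changed order between the libraries. Runx1t1, at chr4:13743436-13893649 on the plus strand (ENSMUSG00000006586), had 0 counts in replicate 1 and 1 count in replicate 2, at or below the 3 counts that a count of 0 allows, which are worth 0.0458 and 0.0464 TPM. The upper bounds deposited for its TPM were wider, at 0.629 and 0.664.

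The order of levels was therefore Runx1, Runx3, then Runx2 and Cbfb, then Runx1t1. The log2 ratio of TPM + 1 of Runx1 over Runx3 was 0.84 and 1.36 in the 2 libraries, and that of Runx3 over Cbfb was 0.47 and 0.48. Runx2 over Cbfb gave 0.26 in replicate 1 and -0.67 in replicate 2, a mean of -0.20 ± 0.66, so these neighbours did not differ beyond their spread. Of the 10 pairs, 9 had the same order in both libraries. Among the 6 pairs without Runx1t1, which lay near 0 in both, 5 had the same order. No p-value is given for a pair, since an exact two-sided sign-flip test over 2 libraries cannot go below 0.5.

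The RUNX transcripts summed to 132.3 TPM in replicate 1 and 173.9 TPM in replicate 2, which was 5.15 and 5.69 times the level of Cbfb. Runx1 made up 49.3% and 64.4% of that sum, Runx3 27.2% and 24.7%, and Runx2 23.4% and 10.9%. Counted over protein-coding models of 600 bases or more, the sum was 69.6 and 85.8 TPM, or 2.71 and 3.08 times Cbfb.

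Over those coding models the order among the RUNX genes changed. Runx1 then stood at 24.6 and 34.4 TPM, a mean of 29.5 ± 6.97, and Runx3 at 31.4 and 37.4 TPM, a mean of 34.4 ± 4.22. Runx1 was 0.783 and 0.922 times Runx3, so Runx3 was the higher of the pair in both libraries, and Runx1 was 0.957 and 1.23 times Cbfb. Runx2 stood at 13.6 and 14.0 TPM and was the lowest of the 4 in both. The levels of Runx1 therefore depend on how its non-coding and short models are counted.

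**Figure D1:**
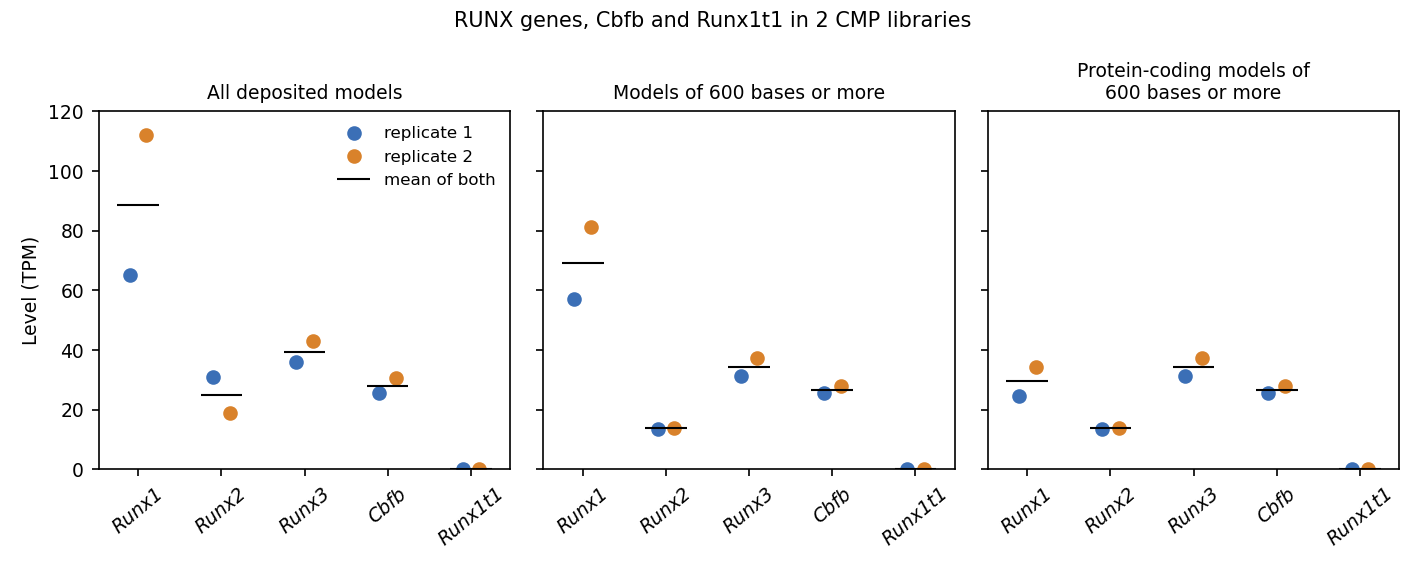
Level (TPM) of Runx1, Runx2, Runx3, Cbfb and Runx1t1 in the 2 CMP libraries (points; lines are means of both), over all deposited transcript models, over models of 600 bases or more, and over protein-coding models of 600 bases or more. Runx1 is highest in the first 2 panels and lies below Runx3 in the last, and the gap of Runx2 between libraries is seen in the first panel alone.

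The 2 libraries differed widely when only counting noise was allowed for. A two-sided exact binomial test on counts scaled by TMM (trimmed mean of M values), with Benjamini-Hochberg adjustment over 13616 genes, called 78.2% of them, so the 3 calls among the 4 tested genes are near that background. Runx1 was higher in replicate 2 by 0.38 on the log2 scale (adjusted p = 4.60e-40, exact binomial test) and Runx3 by 0.19 (adjusted p = 2.84e-06, exact binomial test), beside 40.7% of genes called in that direction. Runx2 was lower in replicate 2, at -0.31 (adjusted p = 5.57e-09, exact binomial test), beside 37.5% called in that direction. Cbfb was not called, with a log2 difference of 0.03 (adjusted p = 0.569, exact binomial test). Scaling by total counts instead of TMM moved every log2 difference up by 0.20 and the share of calls that were higher in replicate 2 from 52.0% to 66.3%. Cbfb was then called at a log2 difference of 0.24. Runx2 kept its direction at -0.11 but lay only just within the threshold of 0.05. These tests compare 2 libraries, not conditions. When spread beyond counting was estimated from the libraries themselves, the common dispersion was 0.576. The exact test of edgeR at that dispersion cannot decide which genes differ, since the same 2 libraries set it.

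On the scale of log2(TPM + 1), Runx1 differed between the libraries by 0.77, where the 400 protein-coding genes nearest to it in level had a median difference of 0.25 in size and 6.75% of them differed by more. Runx2 differed by -0.69, where its 400 neighbours had a median of 0.32 and 20.0% differed by more. Runx3 and Cbfb differed by 0.25 and 0.24, and 58.3% and 58.5% of their neighbours differed by more. The level of Runx1 in TPM was thus among the less repeatable for genes of its abundance, while Runx3 and Cbfb were ordinary in this respect.

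Short transcript models carried much of that gap. Because TPM divides counts by length, few counts on a short model weigh heavily. In Runx1, models under 600 bases took 12.5% of TPM in replicate 1 and 27.4% in replicate 2, from 0.713% and 1.86% of its counts, and held 48.1% of its TPM gap. In Runx2 they took 56.0% and 25.9% of TPM from 6.02% and 1.94% of counts, and over its longer models Runx2 stood at 13.6 and 14.0 TPM. With 1 fixed length per gene, Runx1 was 1.36 times as high in replicate 2 instead of 1.72 times, and Runx2 was 0.844 instead of 0.609 times. The median share of TPM in such short models was 0 over 7224 detected protein-coding genes with several transcripts, and 18.5% of those genes had a higher mean share than the 19.9% of Runx1, and 7.81% a higher share than the 40.9% of Runx2.

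Runx1 had 6 of its 7 annotated transcripts above 0 TPM, all 6 in both libraries. The model with the highest mean was Runx1-207, a processed transcript with no coding sequence, at 27.1 and 37.3 TPM from 1334 and 1818 counts. The longest coding model, Runx1-201, with 465 codons, followed at 21.2 and 24.2 TPM from 2486 and 2831 counts. Both begin in the distal start group and share the end of their second exon. Runx1-201 then joins an exon beyond a 129851-base intron, while Runx1-207 ends in a 2281-base exon, chr16:92815428-92817708, that lies within that intron. The junction sequences are shown because they are what sets the coding and the non-coding form apart, with 15 bases on each side and the third exon in capitals (minus strand, GENCODE M21).
Runx1-201: agtgcttcatgagagATGCCAGCACGAGCC
Runx1-207: agtgcttcatgagagCCCTGATAACACTGA
The exon before the junction ends at position 92825589 of chromosome 16 in both models, and the next begins at 92695737 in Runx1-201 and at 92817708 in Runx1-207.

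Runx1-204, an incomplete coding model of 336 bases at the distal start, stood at 8.14 TPM in replicate 1 and 30.7 TPM in replicate 2, from only 32.1 and 111 counts. The deposited bounds of its TPM were 5.24 to 11.0 and 23.5 to 35.5, wider than those of any longer Runx1 model. They did not overlap between the libraries. Nor did those of Runx1-207, Runx1-201, Runx1-206 and Runx1-203, while those of Runx1-202 did. The share of all transcripts without such overlap was not measured, so it is not known whether this sets Runx1 apart. Of the models from the proximal start, the retained-intron model Runx1-206 stood at 5.41 and 9.63 TPM, the 451-codon model Runx1-203 at 1.30 and 8.10 TPM, and the 387-codon model Runx1-202 at 2.11 TPM in both. Runx1-202 lacks the 192-base exon chr16:92644154-92644345, and it made up 8.58% and 6.13% of the TPM of coding models of 600 bases or more. Of the proximal models above 0, Runx1-206 and Runx1-203 were higher in replicate 2 and Runx1-202 stood at the same value.

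**Figure D2:**
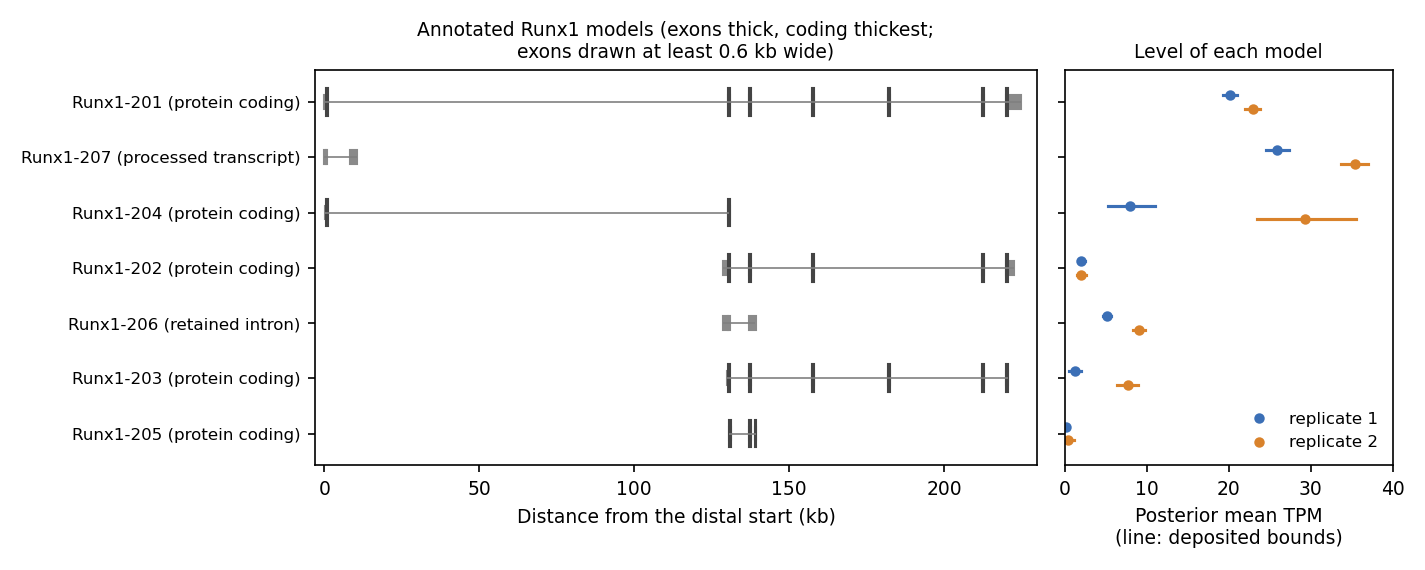
Left, the 7 annotated Runx1 models against the distance from the distal start in kb, with exons as boxes and coding parts taller. Right, the posterior mean TPM of each model in both libraries (points) with the lower and upper bounds deposited for it (lines); Runx1-207 is highest in both, and Runx1-204, which has the widest bounds, lies below Runx1-201 in replicate 1 and above it in replicate 2.

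Protein-coding models held 50.1% of the TPM of Runx1 in replicate 1 and 58.1% in replicate 2, a mean of 54.1% ± 5.62. Non-coding models took 38.6% and 42.5% of its counts. Over the 7224 genes above, the median coding share was 81.6%, and 23.9% of genes had a lower share than Runx1. The share of counts on Runx1-207, the leading transcript by TPM, was 29.6% and 30.4% and did not pass a two-sided Fisher exact test with Benjamini-Hochberg adjustment over 7354 genes (adjusted p = 0.442), a test that called 77.5% of genes. Among coding transcripts alone, Runx1-201 took 89.9% and 82.2% of counts, and that difference passed (adjusted p = 1.91e-17, Fisher exact test). Over coding transcripts the test called 72.6% of 5367 genes. The last exon of Runx1-207 lies within an intron of Runx1-201, so in these tables unspliced Runx1 RNA over that stretch and the spliced short form cannot be told apart.

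Transcripts from the distal start led in Runx1 and Runx3 in both libraries. In Runx1 the distal and proximal starts lie 128821 bases apart, and the distal group took 86.5% and 82.3% of TPM, a mean of 84.4% ± 2.96, and 85.4% (95% Wilson interval 84.4 to 86.4) and 79.6% (78.5 to 80.6) of counts. The Wilson intervals cover counting error only. In Runx3, with starts 31844 bases apart, the distal group took 87.2% and 84.7% of TPM, and 99.1% (98.6 to 99.4) and 98.0% (97.4 to 98.4) of counts. Coding models of 600 bases or more gave a distal share of 86.1% and 70.4% of TPM in Runx1, so replicate 2 had the larger proximal part.

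In Runx2 the starts lie 78149 bases apart, and the order of the start groups depended on the measure. The distal group took 34.9% of TPM in replicate 1 and 52.3% in replicate 2, but 73.0% (70.8 to 74.99) and 80.6% (78.5 to 82.6) of counts. Runx2-205, a proximal model of 440 bases that is incomplete at both ends, took 56.0% and 25.9% of Runx2 TPM. Over models of 600 bases or more the mean distal share was 74.9% ± 6.14 of TPM. Annotated starts stand in for promoters here, since reads were not assigned to starts directly.

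**Figure D3:**
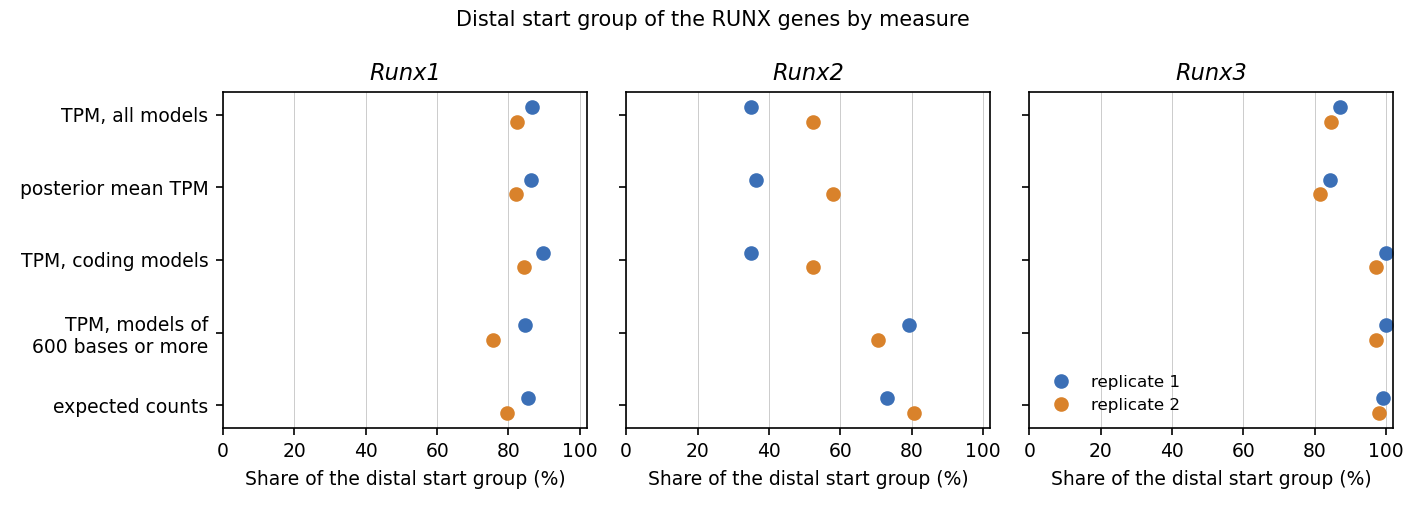
Share (%) of the distal start group of Runx1, Runx2 and Runx3 in both libraries, by the measure named on the left. Runx1 and Runx3 stay above 70% on every measure, while Runx2 moves from 34.9% and 52.3% of TPM over all models to 73.0% and 80.6% of expected counts.

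The promoter windows of the RUNX genes were read from RefSeq (GRCm38.p6, 300 bases around a start), and 6 windows were found for 4 of the 5 genes. The distal windows held an 18-base run with the RUNX consensus, in 2 copies, in all 3 genes. It is shown because the windows of Runx1, Runx2 and Runx3 share it exactly, with matches to the motif TGTGGT or TGCGGT, read on either strand, in capitals.
Runx1 chr16:92826025-92826054, minus strand: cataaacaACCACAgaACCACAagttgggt
Runx2 chr17:44814583-44814612, minus strand: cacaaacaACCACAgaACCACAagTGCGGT
Runx3 chr4:135120503-135120532, plus strand: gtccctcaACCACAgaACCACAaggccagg
The run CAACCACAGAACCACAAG was found in 3 of the 32851 RefSeq windows, those of the RUNX genes. Its first base lay 26 bases after the RefSeq start in Runx1, 21 bases after it in Runx2 and at position -136 in Runx3. In Runx1 it lies in the first exon of Runx1-201 and Runx1-207, outside coding sequence. In Runx2 the printed stretch overlaps exons of Runx2-201, Runx2-202, Runx2-207 and Runx2-208 and the coding sequence of Runx2-201 and Runx2-207, and in Runx3 it overlaps no exon. A match is a description of letters and not of binding.

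The distal windows held 2 motifs in Runx1, 4 in Runx2 and 2 in Runx3, where 22.4% of all windows held at least 1, 2.86% at least 2 and 0.0639% at least 4. The proximal windows of Runx1 and Runx3 and the window of Cbfb held none. The distal windows were also poorer in CpG dinucleotides, with 2 in Runx1, 2 in Runx2 and 8 in Runx3, against 35 in the proximal window of Runx1, 45 in that of Runx3 and 30 in that of Cbfb. The median over all windows was 7. The stretches just upstream of the starts of Runx1 are printed to show this contrast, in lower case throughout because neither holds a motif.
Runx1 distal, chr16:92826150-92826324, minus strand: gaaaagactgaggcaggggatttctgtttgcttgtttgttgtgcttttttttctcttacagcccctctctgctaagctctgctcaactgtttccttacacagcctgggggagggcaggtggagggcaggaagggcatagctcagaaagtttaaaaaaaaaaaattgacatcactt
Runx1 proximal, chr16:92697330-92697579, minus strand: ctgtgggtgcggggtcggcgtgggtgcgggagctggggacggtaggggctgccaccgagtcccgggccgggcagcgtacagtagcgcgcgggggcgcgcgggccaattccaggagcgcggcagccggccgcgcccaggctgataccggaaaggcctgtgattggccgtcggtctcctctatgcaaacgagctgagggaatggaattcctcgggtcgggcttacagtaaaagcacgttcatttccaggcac
The distal stretch held 0 CpG dinucleotides in 175 bases and the proximal stretch 27 in 250 bases. The distal start, poor in CpG, was thus the one with the larger share of Runx1 transcripts in both libraries.

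Runx2 had 4 of its 13 annotated transcripts above 0 TPM, 3 of them in both libraries, and all were annotated as protein-coding. Runx2-202, the 528-codon model from the distal start, stood at 10.8 and 9.87 TPM from 1276 and 1161 counts and was the steadiest of them. Runx2-205 stood at 17.4 and 4.88 TPM from 105 and 27.9 counts. The proximal models Runx2-203, of 514 codons, and Runx2-210, of 492 codons, stood at 2.83 and 1.32 TPM and at 0 and 2.80 TPM. The share of Runx2 counts on Runx2-205 was 6.00% in replicate 1 and 1.94% in replicate 2 (adjusted p = 7.56e-09, Fisher exact test).

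Runx3 had 4 of 6 annotated transcripts above 0 TPM, and Runx3-201 was the only one above 0 in both libraries. Runx3-201, the 423-codon model from the distal start, stood at 31.4 and 36.4 TPM and held 99.1% and 98.0% of Runx3 counts (adjusted p = 0.00131, Fisher exact test). The short processed transcripts Runx3-205 and Runx3-203 stood at 4.62 and 0 TPM and at 0 and 5.56 TPM, from 21.6 and 22.0 counts where they were above 0. Runx3-202, the proximal coding model of 409 codons, was at 0 TPM in replicate 1 and 1.00 TPM in replicate 2, with deposited bounds of 0.0047 to 2.60. Coding models held 87.2% and 87.0% of Runx3 TPM.

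Cbfb gave different transcript makeups in the 2 libraries, while its total stood at 25.7 and 30.5 TPM. In scaled counts the log2 difference of that total was 0.03 by TMM and 0.24 by total counts. Cbfb-203, of 148 codons, stood at 8.37 TPM in replicate 1 and 17.5 TPM in replicate 2, and its share of Cbfb counts was 29.6% and 58.6% (adjusted p = 2.27e-53, Fisher exact test). The test took estimated counts as if observed, so error in assigning reads to models is not covered by that p-value. Cbfb-202, of 182 codons, stood at 8.84 and 10.4 TPM. Cbfb-201, of 187 codons, stood at 6.73 TPM in replicate 1 and 0 in replicate 2, with deposited bounds of 4.62 to 8.43 in the first and an upper bound of 0.405 in the second. Cbfb-204, of 155 codons, stood at 1.75 and 0 TPM, and the short processed transcript Cbfb-206 at 0 and 2.64 TPM. Of the 5 models above 0, Cbfb-202 was the closest between the libraries.

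Cbfb-203 lacks a 117-base exon, chr8:105178593-105178709, that Cbfb-201 and Cbfb-202 carry. The 2 forms of the junction are shown because they set Cbfb-203 apart from Cbfb-201. They are printed with 15 bases on each side and the third exon in capitals (plus strand, GENCODE M21).
Cbfb-201: ggtcgctcggagatcGCTTTTGTGGCTACA
Cbfb-203: ggtcgctcggagatcGTATACTTGAAGGCT
The exon before the junction ends at position 105171392 of chromosome 8, and the next begins at 105178593 in Cbfb-201 and at 105194475 in Cbfb-203. Cbfb-203 made up 32.6% and 62.7% of the TPM of Cbfb coding models. Since 77.5% of genes were called by the same test, a difference of makeup between the libraries was common in these data, and reads across the junctions themselves were not analysed here.

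**Figure D4:**
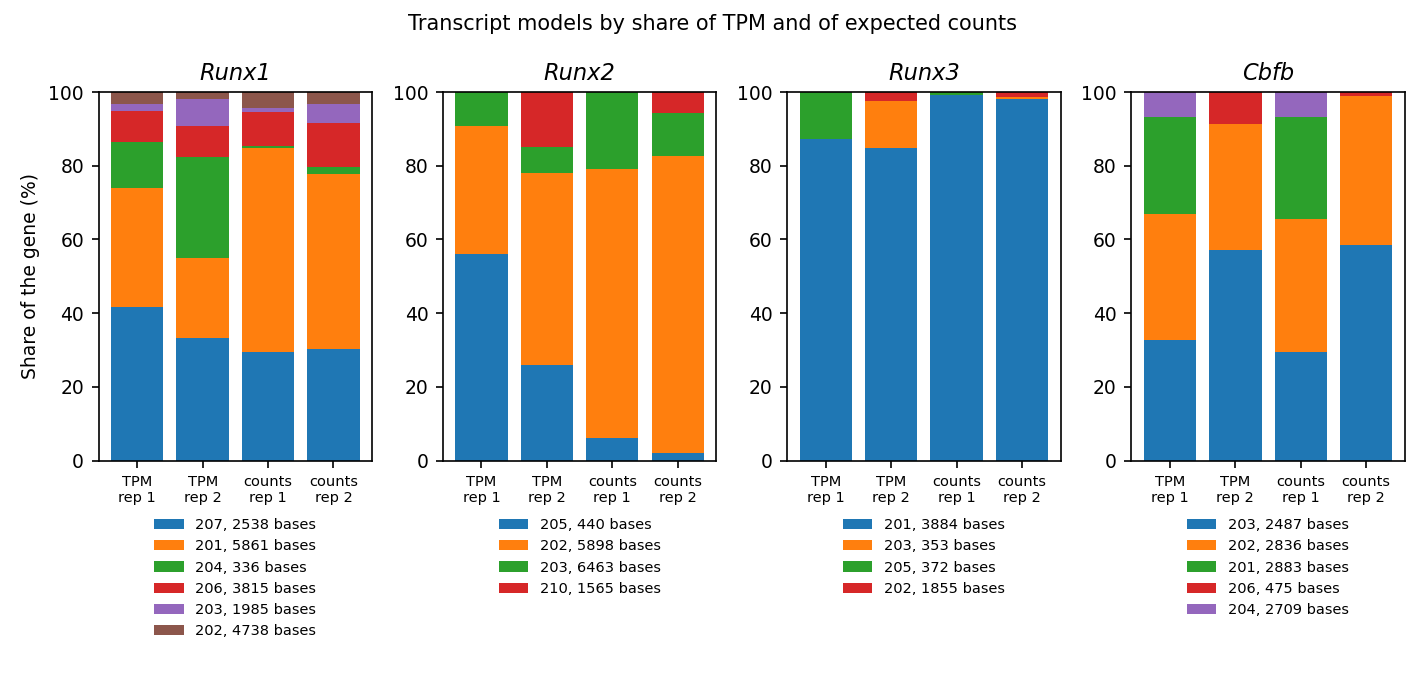
Share (%) of each transcript model above 0 TPM in the TPM and in the expected counts of its gene, for both libraries; the key gives each model's number and length in bases. The short models Runx1-204 and Runx2-205 are wide in the TPM columns and thin in the count columns, and Cbfb-203 is wider in replicate 2 than in replicate 1 on both measures.

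Genes lying over the 5 loci could share reads with them where counting did not use strand, which was not stated. There were 9 such genes, 6 of them on the opposite strand, and 7 had no counts. Supt3, a transcription cofactor gene opposite Runx2, had 248 and 410 counts, and the antisense gene Runx2os1 had 19 and 17. The level of Runx2 is uncertain for this reason, and how many reads it shares with these genes was not measured.

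The known partners of RUNX factors were mostly detected, and the shares below stand beside the 44.9% of all nuclear protein-coding genes and the 78.2% called between the libraries. Each of the 16 matched corepressor genes was detected, with a list median of 30.3 TPM in replicate 1 and 26.5 TPM in replicate 2, led by the nuclear receptor corepressor Ncor1 at 95.5 and 109.3 TPM, the histone deacetylase scaffold Sin3a at 124.6 and 55.7 TPM, and the Groucho-related gene Aes at 73.9 and 86.9 TPM. Of the 3 MTG corepressor genes, Cbfa2t3 stood at 35.5 and 62.1 TPM and Cbfa2t2 at 6.34 and 19.0 TPM, both higher in replicate 2, while Runx1t1 was at 0 and 0.02 TPM. The binomial test called 15 of the 16 corepressor genes, 8 of them higher in replicate 2.

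Of 9 matched coactivator genes, 7 were detected, with medians of 20.1 and 18.8 TPM. Kmt2a, a histone H3 lysine methyltransferase gene, stood at 52.4 and 50.1 TPM, the RNA-binding protein gene Taf15 at 54.0 and 34.0 TPM, and the acetyltransferase gene Ep300 at 46.4 and 27.9 TPM. The Hippo pathway coactivator genes Yap1 and Wwtr1 had 0 counts in both. The test called 6 of the 7 tested, 5 of them higher in replicate 1.

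Among 24 genes for modifiers and turnover of RUNX proteins, 21 were detected, with medians of 17.9 and 16.3 TPM. Cdk6, a cyclin-dependent kinase gene, stood at 120.9 and 107.0 TPM, and the ubiquitin ligase gene Nedd4 at 108.3 and 93.2 TPM. Src, a tyrosine kinase gene, was below 1 TPM in both, at 0 and 0.56. The test called 18 of the 24, 8 of them higher in replicate 2.

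Of 19 transcription factor genes whose products join RUNX1 on DNA in blood cells, 17 were detected, with medians of 43.0 and 49.7 TPM. Lmo2, an adaptor of the TAL1 complex, stood at 198.7 and 238.2 TPM, Myb, a factor of blood progenitors, at 208.5 and 218.9 TPM, and Ldb1, another adaptor of that complex, at 155.3 and 167.5 TPM. These 3 were above Runx1 in both libraries. The test called 16 of the 19, 9 of them higher in replicate 2.

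Genes described as RUNX targets in blood were detected in 20 of 27 cases, with medians of 20.99 and 22.2 TPM. Mpo, the myeloperoxidase of granulocytes, stood at 385.9 and 386.1 TPM, and Nfe2, a factor of platelet formation, at 149.7 and 102.7 TPM. Csf2, Il3, Myl9 and Thpo had 0 counts in both, and Cd4, a gene that RUNX factors silence in the T lineage, stood at 0.10 and 0.46 TPM. The test called 22 of the 23 tested, 14 of them higher in replicate 2. Runx1 itself is on this list. Megakaryocyte markers, among them the described targets Pf4 and Itga2b, moved with Runx1: 6 of 8 were detected, their summed level was 143.3 and 245.3 TPM, and Ppbp and Gp6 were at 0 counts. Their part in the level of Runx1 was not tested.

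**Figure D5:**
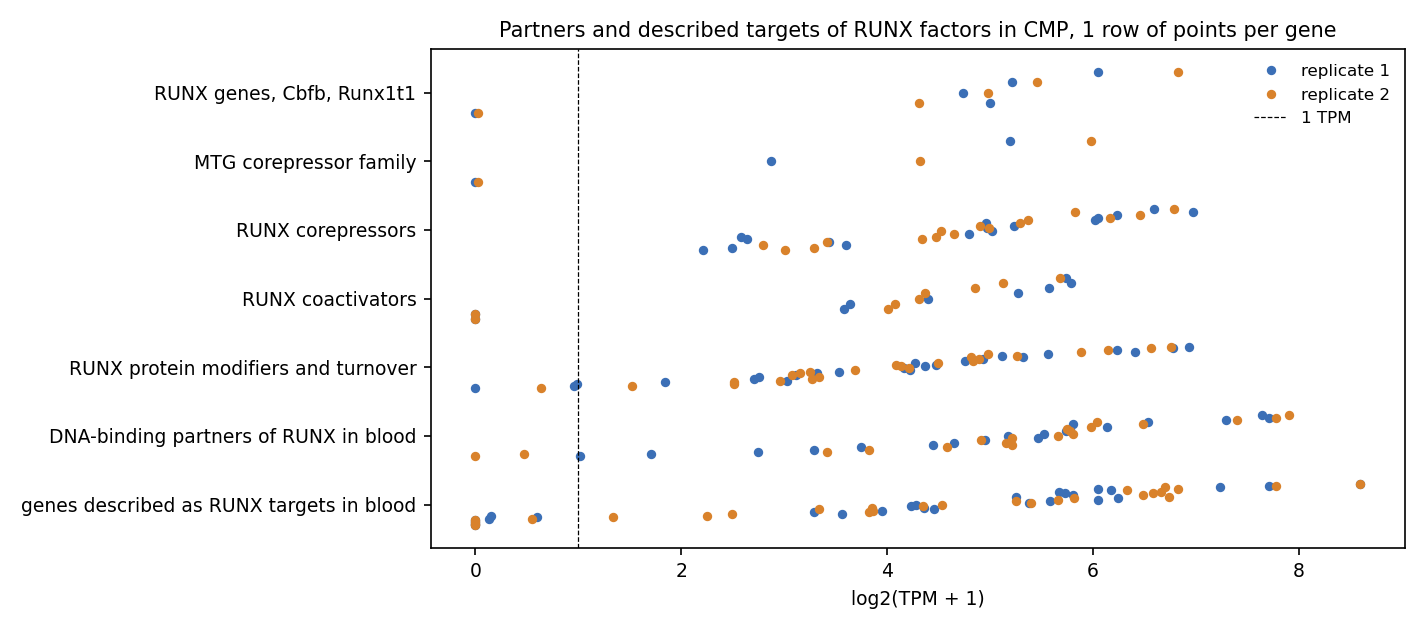
Level, as log2(TPM + 1), of each gene of the RUNX group and of the lists of partners and described targets in both libraries, with 1 line of points per gene, ordered by mean within each list. Detected genes lie right of the dashed line at 1 TPM; Runx1t1, Yap1, Wwtr1 and 4 of the described targets lie at or next to 0.

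Among 55 blood transcription factor genes, those near in level to each RUNX gene and to Cbfb were named by the Euclidean distance of log2(TPM + 1) over the 2 libraries. Bcl11a, at 82.9 and 105.8 TPM (distance 0.35), and Gata2, at 54.8 and 88.4 TPM (0.42), were nearest to Runx1. Tcf3, at 35.2 and 49.7 TPM (0.21), was among the 2 nearest to Runx3. For Runx2 they were Elf1, at 29.9 and 29.2 TPM (0.60), and Irf8, at 27.4 and 30.3 TPM (0.68), and Irf8 (0.088) was also nearest to Cbfb, followed by Fli1 at 24.1 and 34.7 TPM (0.20). Runx2 had no factor as near as the others did. Over 2 libraries such a distance describes like levels alone.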

How the data were processed

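Total RNA was measured in 2 CMP libraries of 1 group. The gene and transcript tables list expected counts, TPM and FPKM as deposited by the authors, with the percent of each transcript in its gene (IsoPct), posterior means and lower and upper bounds. Per the notes deposited beside the files, the annotation was GENCODE M4. Which aligner and quantifier were used is not stated in the sources used here, and FPKM were not used. The deposited bounds are a signal on the TPM scale, and the level they cover is not stated. Names, types and coordinates came from GENCODE M21 by unversioned identifier (42462 of 43346 genes matched), and promoter sequences from RefSeq (GRCm38.p6). Expected counts were rounded for tests, which do not cover error in assigning reads to genes or models. Libraries were compared by an exact binomial test (genes with at least 10 counts in either library) scaled by TMM (edgeR 4.0.16, R 4.3.3), and leading transcripts by Fisher's exact test on genes with 50 or more counts in each library (scipy 1.17.1), both with Benjamini-Hochberg adjustment at 0.05. Starts within 2000 bases were joined. Both tests were tested on simulated counts without spread beyond counting and without error in assigning reads, so those runs do not cover either here. DESeq2 1.42.0 size factors, other filters, posterior means and models of 600 bases or more were tried as alternatives.

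The members and gene lists were chosen with earlier results of these data known. Named were the 5 genes with each transcript above 0 TPM, the 3 highest genes of each partner list and up to 3 below 1 TPM in both libraries, the 2 factors nearest in level, the CMP sorting markers and, of other marker lists, genes at 0 counts or detected. Some genes that this rule names are not reported here. All 4 described targets tied at 0 counts are named, and Cd4, Cd5, Lck, Pf4 and Itga2b were named after their values were seen. Models under 600 bases were set apart after seeing the data. Of the other marker lists, 1 of 8 B cell markers was detected (summed level 12.8 and 12.3 TPM), 2 of 8 of plasmacytoid dendritic cells (30.9 and 33.6 TPM), 4 of 8 of monocytes and macrophages (57.9 and 52.7 TPM), 3 of 8 of neutrophils (8.42 and 7.44 TPM), 4 of 8 of basophils and mast cells (63.8 and 32.5 TPM), 3 of 6 of endothelium (35.5 and 23.3 TPM, Cdh5 at 0 counts), 0 of 6 of neurons (0.03 and 1.14 TPM), 6 of 8 of erythroid cells (158.6 and 105.1 TPM) and 3 of 10 of the lineage depletion (88.5 and 68.3 TPM). The detected genes of that last list were Ptprc, at 52.5 and 51.3 TPM, Ly6c2, at 29.25 and 15.16 TPM, and Itgam, at 2.97 and 1.19 TPM.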

Additional observations from a re-analysis of the deposited data

How the results depend on the processing

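No paired analysis was possible because both libraries belong to 1 group. Of 246 alternative values 183 were labelled the same, 56 moved further, 3 lost and 1 gained a call, and 3 reversed. The same meant a move within the spread between libraries, a kept call or, for counts of genes or pairs, a fixed factor. With 2 libraries, leaving 1 out moves a mean level, ratio or share by less than that spread whatever the data. Such alternatives could therefore only stay the same or reverse. Of the reversals, Runx1 over Runx3 fell to -0.23 (log2) over protein-coding models of 600 bases or more. Runx2 over Cbfb, -0.20 in the mean, was 0.19 from CPM without length correction. It ran from -0.67 without replicate 1 to 0.26 without replicate 2. Rescaling TPM over nuclear protein-coding genes raised the mean levels to 229.1 in Runx1, 65.1 in Runx2, 102.4 in Runx3 and 72.9 in Cbfb, without changing their order. The edgeR exact test called 0 genes between the libraries (1541 at an unadjusted p under 0.05) where the binomial test called 10647. Scaling by total counts gave 7158 calls higher in replicate 2 and 3632 higher in replicate 1, from 5541 and 5106. Over models of 600 bases or more, chosen after seeing the data, the distal share was 80.1% in Runx1, 74.9% in Runx2 and 98.7% in Runx3, and the coding share 42.7% in Runx1 and 100% in Runx3. By expected counts the distal share was 76.8% in Runx2 and 98.6% in Runx3, and the coding share 99.2% in Runx3. From posterior means the distal share of Runx3 was 82.8%, and the coding shares were 96.1% in Runx2 and 84.4% in Runx3. Over coding transcripts alone the distal share of Runx3 was 98.7%. Leaving out a library gave distal shares of 82.3% to 86.5% in Runx1, 34.9% to 52.3% in Runx2 and 84.7% to 87.2% in Runx3, and coding shares of 50.1% to 58.1% in Runx1, 87.0% to 87.2% in Runx3 and 91.4% to 100% in Cbfb. Depth limits Runx1t1 to the floor of 3 counts, and 2 libraries limit every spread given.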
